A study of Mus musculus with 15 samples.

Results

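The myeloid C-type lectin receptors are surface proteins by which macrophages, monocytes, neutrophils and dendritic cells sense sugars and lipids of microbes and of damaged cells. The genes described are Clec4d, Clec4e, Clec4n, Clec7a, Clec5a, Clec4a2, Clec12a and Clec10a, chosen by name as a receptor family; no measured value enters the rule, though earlier results of these data were known when the family was picked. Of these 8 genes, 7 had at least 1 probe set that the platform annotation pairs with that symbol alone, 10 probe sets of the 45101 on the array. Clec12a was not matched in the annotation used and was not analysed here. All 7 measured genes were among the 14314 genes tested.

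These receptors signal by different routes. Clec4d (MCL), Clec4e (Mincle, a receptor of the mycobacterial cord factor) and Clec4n (Dectin-2, a receptor of mannans) pair with the FcR gamma chain, encoded by Fcer1g, whose ITAM motif recruits the kinase Syk and then the adaptor Card9. Clec7a (Dectin-1, the beta-glucan receptor) recruits Syk through a motif of its own, and Clec5a (MDL-1) does so through the adaptor DAP12, encoded by Tyrobp. Clec4a2 (DCIR) carries an inhibitory ITIM motif that recruits phosphatases such as Ptpn6 (SHP-1), and Clec10a (MGL1) is an endocytic receptor of galactose-type sugars on macrophages and dendritic cells.

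Collagen-induced arthritis (CIA) is an inflammatory arthritis that follows immunization against type II collagen, a cartilage protein. RNA of mouse knee joint synovium, the lining tissue of the joint, was measured on 15 Affymetrix arrays: 3 of healthy naive joints and 3 each of CIA joints with no, mild, moderate and severe swelling. The protocol gives an injection on day 0 of 100 ug of type II collagen in FCA and 100 ug again on day 21, and the same text stands on the naive samples, where it was taken as written for the whole series. Strain, sex and age are not given in the sources used here, and nothing says that replicates are separate animals, so a p-value here speaks of the scatter among arrays, which could be technical.

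The values are MAS5 signals, an intensity that the authors' processing puts on a common scale for all arrays. Median signals were 36.3 to 47.6 per array. The ratio of 3' to 5' actin probe sets, a sign of RNA quality, moved with the groups: it was 0.890 to 1.03 on the naive arrays, 1.07 to 1.16 without swelling, 1.13 to 1.19 with mild, 1.19 to 1.27 with moderate and 1.21 to 1.27 with severe swelling, and its part in the receptor values was not tested. That of Gapdh was 0.804 to 0.959 over all arrays. The number of arrays limits the precision. All 10 synovial fibroblast markers examined passed the signal filter, with a summed signal of 12648 to 13253 in naive and 33675 to 47299.5 in severely swollen joints. The 10 skeletal muscle markers also passed, with a summed signal of 76947 to 88639 in naive and 57429 to 78684 in severely swollen joints, so the tissue held muscle RNA. In such bulk tissue, more cells of a type and more RNA per cell cannot be told apart. Differences are on the log2(signal + 16) scale, which understates the change of dim genes, and a gene is said to rise or fall where limma gave a Benjamini-Hochberg adjusted p under 0.05 over all genes tested. The 4 comparisons with naive joints share the 3 naive arrays.

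Promoter windows from RefSeq (GRCm38.p6, 250 bases before to 50 after the start site) were held for 5 of the 7 genes: Clec4d, Clec4e, Clec5a, Clec7a and Clec4a2. Clec7a had 2 windows, of which only the first listed was searched. The windows of the 3 receptors that rose already without swelling are shown, with that of the inhibitory receptor Clec4a2 beside them. Capitals mark GAGGAA, the core recognised by the myeloid factor PU.1, on either strand (TTCCTC on the other), and also TTGCNNAA (C/EBP) in Clec4e and TGANTCA (AP-1) in Clec4a2. The C/EBP match lies on the other strand, so the printed letters are TTGTGCAA. The windows are chr6:123261857-123262156 on the plus strand for Clec4d, chr6:123289822-123290121 on the minus strand for Clec4e, chr6:129472730-129473029 on the minus strand for Clec7a and chr6:123122440-123122739 on the plus strand for Clec4a2.
Clec4d: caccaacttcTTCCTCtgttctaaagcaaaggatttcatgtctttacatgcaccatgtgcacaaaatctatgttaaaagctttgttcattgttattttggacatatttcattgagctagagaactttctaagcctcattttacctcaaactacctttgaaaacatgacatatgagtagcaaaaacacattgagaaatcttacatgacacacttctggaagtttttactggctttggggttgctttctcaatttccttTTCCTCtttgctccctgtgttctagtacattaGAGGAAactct
Clec4e: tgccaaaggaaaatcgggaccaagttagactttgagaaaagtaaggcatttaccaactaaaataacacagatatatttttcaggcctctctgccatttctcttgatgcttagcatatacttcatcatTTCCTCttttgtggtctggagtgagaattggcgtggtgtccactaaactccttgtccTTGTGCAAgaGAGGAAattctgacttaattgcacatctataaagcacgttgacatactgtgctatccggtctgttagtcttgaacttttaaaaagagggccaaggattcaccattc
Clec7a: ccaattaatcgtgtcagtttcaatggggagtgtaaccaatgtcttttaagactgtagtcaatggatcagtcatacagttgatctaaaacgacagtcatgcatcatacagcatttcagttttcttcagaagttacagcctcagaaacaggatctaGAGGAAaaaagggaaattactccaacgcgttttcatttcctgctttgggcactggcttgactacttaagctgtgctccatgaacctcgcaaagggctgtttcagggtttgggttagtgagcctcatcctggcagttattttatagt
Clec4a2: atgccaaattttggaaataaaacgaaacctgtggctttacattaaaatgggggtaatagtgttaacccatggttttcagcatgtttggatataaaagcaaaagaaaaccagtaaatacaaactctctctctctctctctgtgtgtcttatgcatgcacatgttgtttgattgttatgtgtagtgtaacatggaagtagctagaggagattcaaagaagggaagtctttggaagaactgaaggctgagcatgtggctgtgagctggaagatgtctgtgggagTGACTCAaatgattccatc

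GAGGAA was found in 4 of the 5 windows: 3 matches in Clec4d, 2 in Clec4e, 2 in Clec5a, 1 in Clec7a and 0 in Clec4a2. Of all 32851 promoter windows in the table, 28.3% held it. TGANTCA was in 1 of 5 windows and in 7.81% of all. TTGCNNAA was in 1 of 5 and in 10.8% of all, its match in Clec4e starting 66 bases before the start site and lying just upstream of a GAGGAA. A match to the NF-kB motif was in 0 of 5 and in 20.7% of all. None of the marked matches overlapped another. A match describes the letters of the window and is no evidence of binding.

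All 3 receptors that pair with the FcR gamma chain rose in swollen joints. Clec4d had signals of 23.6, 18.9 and 22.0 in naive joints, 75.6, 94.5 and 48.1 without swelling, 308.5, 294.6 and 564.5 with mild, 630.8, 530.1 and 423.9 with moderate and 601.3, 456.8 and 545.1 with severe swelling. Naive joints were lowest on every array, joints without swelling lay between them and all swollen joints, and the 3 swollen groups overlapped one another. The group means were 21.5 ± 2.39 (SD, n = 3), 72.7 ± 23.3, 389.2 ± 152, 528.3 ± 103 and 534.4 ± 72.8. Severely swollen joints were higher than naive by 3.87 ± 0.24 (SE) on the log2 scale (adjusted p = 3.3e-08). The naive signals lay under the level used for the signal filter, so the size depends on the added constant: it was 4.57 with 1 in place of 16 and 2.80 with 64, called in each case.

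Clec4e signals were 2.3, 4.2 and 2.8 in naive joints, 44.0, 33.9 and 16.1 without swelling, 107.6, 81.8 and 126.8 with mild, 174.7, 175.6 and 87.3 with moderate and 217.2, 117.2 and 169.9 with severe swelling. The gene was very dim in naive joints, all 3 no-swelling arrays lay above them, and every swollen joint lay above every joint without swelling. Severely swollen joints were higher than naive by 3.23 ± 0.28 (adjusted p = 3.14e-07). Because the naive signals are so low, this size also depends on the constant, with 5.35 for 1 and 1.77 for 64, both called. A further probe set of Clec4e, dimmer in swollen joints at 73.1, 52.0 and 56.4 in the severe group, gave 1.28 ± 0.34 (adjusted p = 0.00555).

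Clec4n signals were 12.5, 30.8 and 34.5 in naive joints, 75.6, 54.0 and 33.6 without swelling, 250.9, 197.7 and 328.6 with mild, 415.6, 376.6 and 335.9 with moderate and 401.0, 285.5 and 447.5 with severe swelling. Here the no-swelling arrays overlapped the naive ones through replicate 3 of that group, while swollen joints stood clear of both, the moderate arrays above the mild ones. Severely swollen joints were higher than naive by 3.25 ± 0.26 (adjusted p = 1.66e-07), and its further probe set gave 2.71 ± 0.22 (adjusted p = 2.24e-07).

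**Figure D1:**
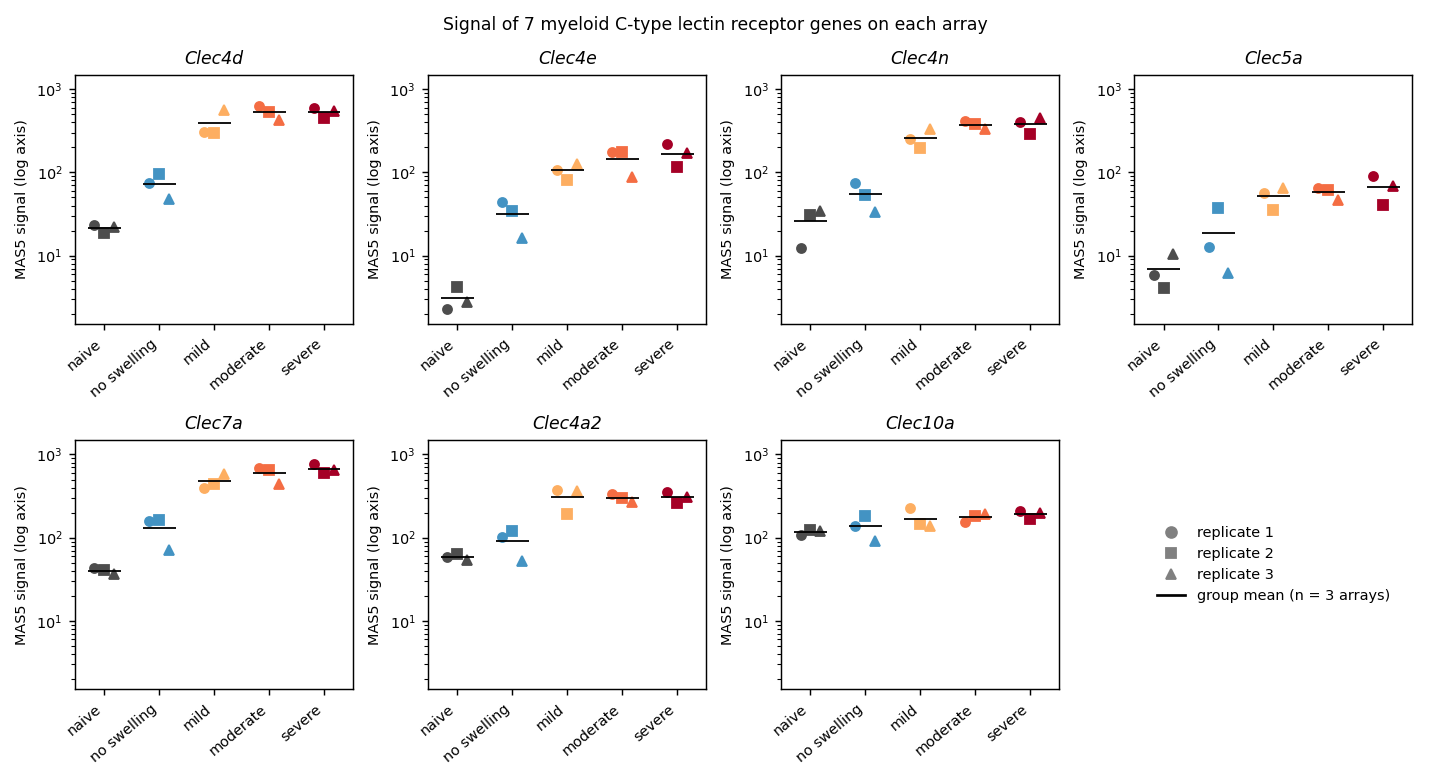
MAS5 signal (log axis) of the 7 receptor genes on each of the 15 arrays by group; symbols mark replicate numbers and bars the mean of 3 arrays. Clec4d lies between 18.9 and 23.6 in naive joints and between 294.6 and 630.8 in swollen joints, whereas Clec10a lies between 107.7 and 124.3 and between 136.5 and 228.3.

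Clec7a, the beta-glucan receptor with its own Syk-recruiting motif, rose about as far. Its signals were 43.4, 41.0 and 36.3 in naive joints, 158.2, 161.2 and 70.8 without swelling, 392.7, 446.4 and 586.8 with mild, 683.4, 658.2 and 436.6 with moderate and 774.0, 597.8 and 651.0 with severe swelling. The naive arrays were tight and lowest, the no-swelling arrays intermediate without overlap on either side, and each swollen group overlapped the next grade. The difference between severe swelling and naive was 3.61 ± 0.24 (adjusted p = 5.94e-08).

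Clec5a, the DAP12-coupled receptor, was dim throughout. Its signals were 5.9, 4.1 and 10.6 in naive joints, 12.6, 37.7 and 6.2 without swelling, 57.1, 35.1 and 64.9 with mild, 65.8, 61.0 and 46.2 with moderate and 91.6, 41.1 and 68.4 with severe swelling. The no-swelling group overlapped both its neighbours, through replicate 3 at the low end and replicate 2 at the high end. Severely swollen joints were higher than naive by 1.82 ± 0.31 (adjusted p = 0.000117), or by 3.12 with a constant of 1 and 0.87 with 64.

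The inhibitory receptor Clec4a2 rose as well, by less than Clec4d, Clec4n and Clec7a. Its signals were 57.9, 64 and 54.1 in naive joints, 103.0, 121.7 and 52.7 without swelling, 369.6, 194.1 and 360.8 with mild, 338.1, 303.8 and 268.2 with moderate and 356.0, 259.5 and 309.7 with severe swelling. The swollen groups had nearly equal means (308.2 ± 98.9, 303.4 ± 35.0 and 308.4 ± 48.3, SD, n = 3) and lay above all other arrays, while replicate 3 of the no-swelling group was below every naive array. Severely swollen joints were higher than naive by 2.11 ± 0.25 (adjusted p = 4.04e-06). The 2 probe sets of the gene disagreed in this comparison: the dimmer one, with 7.1, 4.1 and 24.3 in naive and 37.9, 14.4 and 23.1 in severely swollen joints, gave 0.59 ± 0.31 (adjusted p = 0.12), though it was called with moderate swelling (1.0 ± 0.31, adjusted p = 0.0123).

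Clec10a, the endocytic receptor, changed least of the 7 genes measured. Its signals were 107.7, 124.3 and 120.5 in naive joints, 139.6, 180.0 and 92.2 without swelling, 228.3, 145.4 and 136.5 with mild, 152.4, 184.1 and 194.1 with moderate and 209.7, 167.4 and 199.0 with severe swelling. Swollen joints lay above naive ones on every array, but the no-swelling arrays spanned the range from below naive to within the swollen groups. The difference was 0.64 ± 0.21 with severe (adjusted p = 0.0161) and 0.53 ± 0.21 with moderate swelling (adjusted p = 0.0418). These calls were the least firm of the set: with quantile normalization they became 0.47 (adjusted p = 0.0582) and 0.35 (adjusted p = 0.146), and the severe call was lost without naive replicate 1 (adjusted p = 0.0543) or severe replicate 1 (adjusted p = 0.0581). The moderate call was lost without any 1 of the naive arrays (adjusted p = 0.0632 to 0.115), without moderate replicate 2 (0.098) or 3 (0.121), or without severe replicate 3 (0.05), and also with no filter, with medians aligned, with no trend and with the replicate number as a block (0.0502 to 0.0578). With arrays scaled on the hybridization controls, which raised the median of all genes, Clec10a was called with mild swelling as well (1.03, adjusted p = 0.01).

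Over the grades, 7 of 7 measured receptors were called higher with severe swelling, where 32.3% of all genes tested were; all 7 had groups that did not overlap, as did 36.1% of all genes in that direction. With moderate swelling it was 7 of 7 against 30.9%. With mild swelling the count was 6 of 7 against 23.1%, Clec10a (0.45 ± 0.21, adjusted p = 0.0981) being the exception. The median difference of the 7 was 3.23 with severe, 3.03 with moderate and 2.65 with mild swelling, where the median over all genes tested was 0.11, 0.06 and 0.05. Signals were above the array's 40th percentile, the level used for the filter, on 0 of 3 naive arrays for Clec4d, Clec4e and Clec5a. These genes entered the test through the CIA arrays, so the counts describe the set and are not offered as support for it.

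Joints that were immunized but not swollen already had more RNA of 3 of the 7 receptors, against 1.52% of all genes tested. Clec7a was higher than in naive joints by 1.31 ± 0.24 (adjusted p = 0.00961), Clec4e by 1.26 ± 0.28 (adjusted p = 0.0241) and Clec4d by 1.21 ± 0.24 (adjusted p = 0.0123), and for these 3 genes the groups did not overlap, as for 13% of all genes in that direction. Clec4n (0.75 ± 0.26, adjusted p = 0.125), Clec5a (0.51 ± 0.31, adjusted p = 0.396), Clec4a2 (0.48 ± 0.25, adjusted p = 0.315) and Clec10a (0.16 ± 0.21, adjusted p = 0.743) did not pass, and their groups overlapped. Whether the receptors differ from one another in this comparison was not tested. The further probe sets differed from the main ones: that of Clec4n was called (0.93 ± 0.22, adjusted p = 0.0381), and that of Clec4e was not (-0.03 ± 0.34, adjusted p = 0.975). With probe sets of a gene averaged, Clec4e was 0.61 (adjusted p = 0.206) and Clec4n 0.84 (adjusted p = 0.0414).

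The no-swelling calls rest on few arrays. Replicate 3 of that group was the lowest of the 3 for 7 of 7 receptors; it also had the lowest summed signal of 14 macrophage markers (3121.6, against 6207.5 and 7647.1) and of 12 neutrophil markers (587.3, against 3889.7 and 1357.2). Without it the same 3 receptors were called, Clec7a at 1.65 (adjusted p = 0.000476). Without replicate 1 of that group, or without naive replicate 3, 0 were called; Clec4d was then 1.17 (adjusted p = 0.0603) in the former case. Without naive replicate 2 the count was 1, and without naive replicate 1 it was 2, Clec4e being lost (adjusted p = 0.0886). With a constant of 64 the count was 1, and with arrays scaled on the hybridization controls it was 0, Clec7a then being 1.15 (adjusted p = 0.129).

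**Figure D2:**
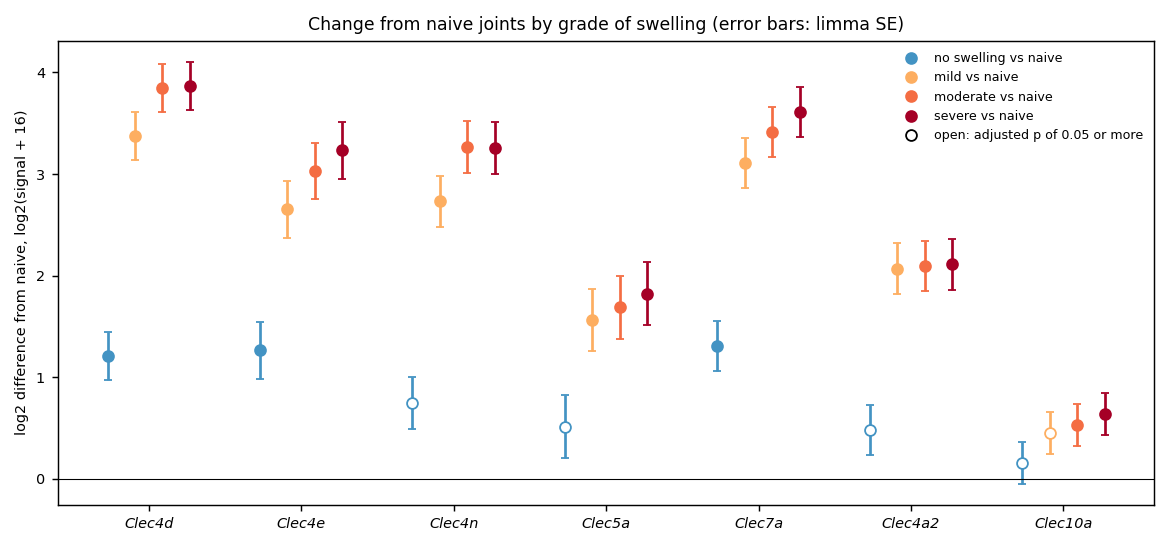
Difference of each CIA group from naive joints on the log2(signal + 16) scale for the 7 receptors, with the limma SE as error bars; open symbols did not pass an adjusted p of 0.05. Clec4d, Clec4e and Clec7a pass without swelling, at 1.21, 1.26 and 1.31, and Clec10a stays at or below 0.64.

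The step from no swelling to mild swelling carried the next rise. It was called for 6 of 7 receptors, against 23% of all genes tested: Clec4d rose by 2.16 ± 0.24 (adjusted p = 2.09e-05), Clec4n by 1.98 ± 0.26, Clec7a by 1.80 ± 0.24, Clec4a2 by 1.59 ± 0.25, Clec4e by 1.39 ± 0.28 and Clec5a by 1.05 ± 0.31 (adjusted p = 0.0137). Clec10a differed by 0.29 ± 0.21 (adjusted p = 0.295). Of the 6, 5 had groups that did not overlap, against 26.9% of all genes. Clec5a had overlapping groups and lost its call without no-swelling replicate 3 (0.78, adjusted p = 0.0781) or mild replicate 3 (adjusted p = 0.0624).

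Between the grades of swelling, no receptor was called. From mild to moderate swelling 0 of 7 passed in limma, against 3.3% of all genes called higher, with differences from 0.03 ± 0.25 for Clec4a2 to 0.53 ± 0.26 for Clec4n (adjusted p = 0.218), and 0 of 7 had an unadjusted p under 0.05. Without mild replicate 3, Clec4d was called (0.76, adjusted p = 0.027). From moderate to severe swelling 0 of 7 passed, as did 0% of all genes, with 0 of 7 receptors and 888 genes at an unadjusted p under 0.05. The differences ran from -0.01 ± 0.26 for Clec4n to 0.20 ± 0.28 for Clec4e. Severe replicate 2 was the lowest of its group for 7 of 7 receptors, and moderate replicate 3 for 6 of 7. A linear slope over the 4 CIA groups was called for 6 of 7, against 33.6% of all genes, from 0.84 ± 0.07 per grade for Clec4d down to 0.41 ± 0.10 for Clec5a; for Clec10a it was 0.15 ± 0.07 (adjusted p = 0.0615). Severe against no swelling gave the same count, 6 of 7 against 33.1%, with Clec10a at 0.48 ± 0.21 (adjusted p = 0.0626). Without no-swelling replicate 2, or without mild replicate 1, Clec10a was called in both, the slope with an adjusted p of 0.0131 and 0.0225. Clec4d, Clec4e and Clec7a thus had called differences from naive to no swelling and from there to mild swelling, the former resting on few arrays. Clec4n, Clec5a and Clec4a2 had the latter alone, and Clec10a neither. This sorting is by the main probe sets: without swelling the further probe set of Clec4n was called and that of Clec4e was not. Neighbouring grades of swelling were not told apart by the test for any receptor with all arrays in. Severe against mild swelling was not fitted. There the severe arrays of Clec7a (597.8 or more) lay just above the mild ones (586.8 or less). The groups of every other receptor overlapped, and the share of all genes without overlap was not computed.

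The receptors did not rise by equal amounts. Within each array the difference of 2 receptors was taken. Its mean in the 9 swollen arrays was compared with that in the 6 others by an exact two-sided permutation test, adjusted over the 21 pairs. The smallest p this exact permutation test can give is 0.0004. With the CIA arrays alone 9 arrays stand against 3, and its smallest p is larger. Clec10a rose less than each of the other 6: by 2.63 than Clec4d, 2.27 than Clec7a, 2.25 than Clec4n, 1.88 than Clec4e, 1.39 than Clec4a2 and 0.98 than Clec5a (exact permutation p = 0.0004, adjusted p = 0.000932 for each). These pairs kept their direction and call with constants of 1 and 64 and with the CIA arrays alone. The same held for the inhibitory Clec4a2 set against Clec4d, which rose by 1.24 more (adjusted exact permutation p = 0.00153), and against Clec4n, which rose by 0.86 more (adjusted exact permutation p = 0.0028). Clec7a rose by 0.87 more than Clec4a2 (adjusted exact permutation p = 0.0042), a call lost with the CIA arrays alone (0.46, adjusted p = 0.0848).

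Of the 21 pairs, 19 were called, a count that went as low as 13 in other settings. The pairs not called were Clec4d with Clec4n, at 0.38 (adjusted exact permutation p = 0.0541), and Clec4n with Clec7a, at -0.02 (adjusted exact permutation p = 0.931). Clec4d rose by 0.75 more than its partner Clec4e (adjusted exact permutation p = 0.000932), but the order of this pair turned with a constant of 1, to -0.05, so it depends on how dim signals are treated.

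Markers of macrophages and neutrophils, and of several other cell types, moved with the receptors. For comparison, 32.3% of all genes tested were called higher with severe swelling. With severe swelling 13 of 14 tested macrophage markers rose, with a median of 2.38, among them Mpeg1 (5.49 ± 0.33), Msr1 (2.64 ± 0.24) and Cd68 (2.61 ± 0.26); Cd163 did not pass. Of 12 tested neutrophil markers 9 rose, among them S100a9 (7.14 ± 0.48), Csf3r (4.86 ± 0.29) and Cxcr2 (3.08 ± 0.20), and 6 of 6 tested inflammatory monocyte markers rose, with Ccr2 at 3.47 ± 0.32. The summed macrophage signal was 3924 to 4245 in naive joints and 17095 to 23287 with severe swelling; the summed neutrophil signal was 271 to 339 and 10152 to 14356. Without swelling 4 of 12 neutrophil, 2 of 6 monocyte, 1 of 14 macrophage and 2 of 10 synovial fibroblast markers rose, against 1.52% of all genes tested. Among them S100a9 rose by 3.73 ± 0.48, Ccr2 by 1.61 ± 0.32 and Mpeg1 by 2.19 ± 0.33. With severe swelling 10 of 10 synovial fibroblast markers rose as well, with a median of 2.28, as did 5 of 6 osteoclast markers, with a median of 2.11. Of dendritic cell markers 4 of 8 rose, of T and NK cell markers 2 of 4 and of B cell markers 0 of 3, while 5 of 10 muscle markers fell. The part of these cells in the receptor values was not tested.

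Set against the mean of the macrophage markers on the same array, the receptors differed, by the same exact test adjusted over 14 comparisons. Clec4d (1.22, adjusted exact permutation p = 0.00186), Clec7a (0.85, adjusted p = 0.00224), Clec4n (0.84, adjusted p = 0.00186) and Clec4e (0.47, adjusted p = 0.0497) rose more than these markers. Clec4a2 differed by -0.02 (adjusted exact permutation p = 0.828), and Clec5a (-0.44, adjusted p = 0.00559) and Clec10a (-1.41, adjusted p = 0.00186) rose less. With the CIA arrays alone Clec4e was 0.061 (adjusted exact permutation p = 0.773), and its call was lost. The values for the dimmest genes turned with the constant. Clec5a was 0.42 with 1 (adjusted exact permutation p = 0.153). With 64 Clec4e was called as rising less than these markers (-0.29, adjusted exact permutation p = 0.0117). Clec4a2 was then called as rising less too (-0.19, adjusted exact permutation p = 0.0177). Against neutrophil markers Clec4d rose more (0.74, adjusted exact permutation p = 0.00373) and Clec5a (-0.92, adjusted p = 0.0175) and Clec10a (-1.90, adjusted p = 0.00224) less, while Clec4e was -0.01 (adjusted p = 0.932). The last of these was 0.75 with a constant of 1. With 64 it was -0.42 and called (adjusted exact permutation p = 0.0168). Clec7a, not called at 0.37 (adjusted exact permutation p = 0.0587), was called with 64 (0.43, adjusted p = 0.00808). With the CIA arrays alone the calls of Clec4d (0.75, adjusted exact permutation p = 0.0545) and Clec5a (-0.56, adjusted p = 0.28) were lost. The difference of Clec4d was not smaller there, and with fewer arrays the test cannot reach as small a p. The call of Clec5a was also lost with a constant of 1 (-0.43, adjusted exact permutation p = 0.322).

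**Figure D3:**
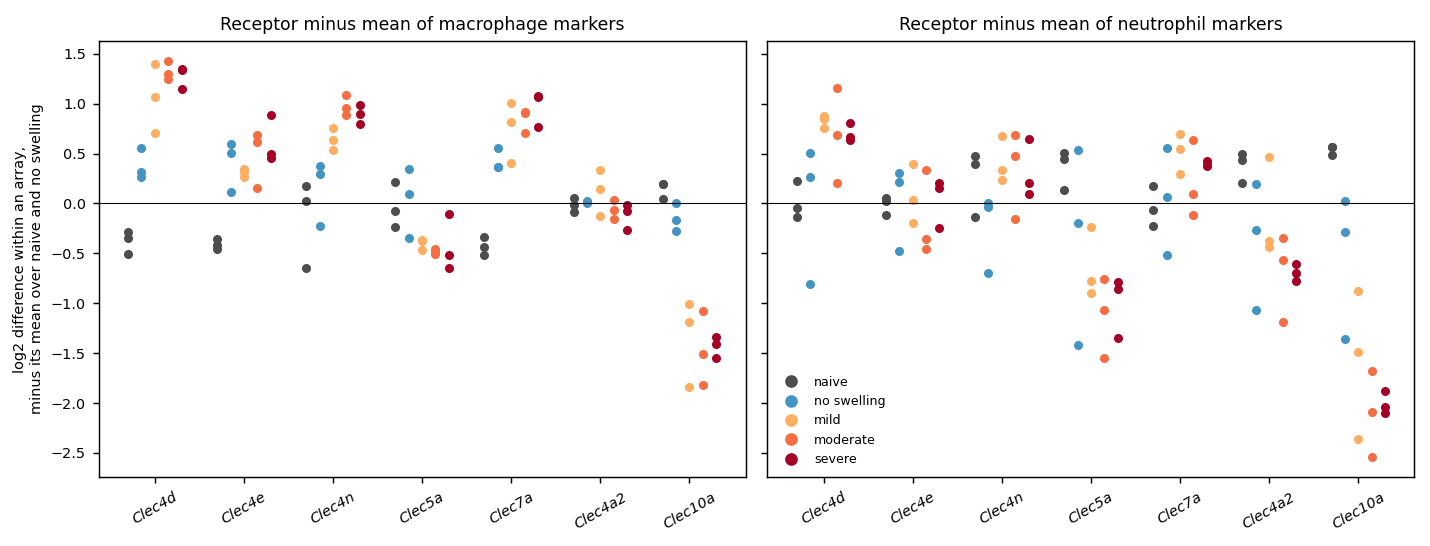
Within-array difference between each receptor and the mean of macrophage (left) or neutrophil markers (right), log2(signal + 16), after subtracting its mean over naive and no-swelling arrays; each point is an array. Clec4d lies above 0 in all swollen joints against macrophage markers, where its swollen mean is 1.22 above the others, and Clec10a lies below, at -1.41.

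The signalling partners of the activating receptors rose in the same joints. Of 13 tested adaptor and Syk-Card9 genes, 11 rose with severe swelling, against 32.3% of all genes tested, and 0 fell, with a median of 1.59. Tyrobp, the DAP12 adaptor of Clec5a, had a mean signal of 98.1 ± 5.16 in naive and 1772 ± 374 in severely swollen joints (SD, n = 3), a rise of 3.95 ± 0.33 (adjusted p = 2.22e-07). Fcer1g, the partner of Clec4d, Clec4e and Clec4n, went from 84.0 ± 33.8 to 927 ± 195, by 3.27 ± 0.33 (adjusted p = 1.18e-06), and the kinase Syk from 49.0 ± 6.16 to 402.6 ± 96.2, by 2.67 ± 0.32 (adjusted p = 4.45e-06). Bcl10 (0.90 ± 0.13) and Malt1 (0.64 ± 0.17), which assemble with Card9, rose by less. The transcription factor gene Rel and the kinase gene Prkcd did not pass.

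Without swelling 0 of these 13 were called higher, against 1.52% of all genes tested. Prkcd, the kinase that links Syk to Card9, was called lower (-0.85 ± 0.14, adjusted p = 0.00357), as were 252 of all 14314 genes tested. Tyrobp differed there by 0.98 ± 0.33 (adjusted p = 0.115), Fcer1g by 0.65 ± 0.33 (adjusted p = 0.313) and Syk by 0.07 ± 0.32 (adjusted p = 0.934). From no to mild swelling 11 of 13 rose, against 23% of all genes tested, Prkcd by 0.77 ± 0.14. From mild to moderate 0 did, against 3.3% of all genes tested.

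Genes listed as brakes of this signalling also changed. Of 11 tested phosphatases and adaptors that act as brakes, 8 rose with severe swelling, against 32.3% of all genes tested, and 1 fell. The median was 1.17. Those with the lowest p were Dok1 (2.02 ± 0.25), Ptpn6 (1.54 ± 0.21), the SHP-1 phosphatase recruited by ITIM receptors such as Clec4a2, and the ubiquitin ligase gene Cbl (1.23 ± 0.18). Ptpn11, the SHP-2 phosphatase, fell by 0.77 on the log2 scale (SE 0.13, adjusted p = 9.86e-05). The list was set by name, and whether Ptpn11 acts as a brake in this tissue was not tested. From no to mild swelling 6 rose, against 23% of all genes tested, and 1 fell, as did 2230 of all 14314. Without swelling 0 of 11 were called, where 1.52% of all genes tested were called higher, Ptpn6 being 0.24 ± 0.21 above naive.

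Of 12 tested genes that Syk-Card9 signalling induces in myeloid cells, 10 rose with severe swelling, against 32.3% of all genes tested. Their median was 1.69. Il23a, Il12b, Csf2, Csf3 and Il1a, also listed, did not pass the signal filter and were not tested. The cytokine gene Il1b rose by 4.0 ± 0.25, Ptgs2, the inducible prostaglandin synthase, by 3.96 ± 0.29, and the neutrophil chemokine gene Cxcl1 by 3.53 ± 0.22. Il10 (-0.46 ± 0.25, adjusted p = 0.127) and Tnf (0.65 ± 0.46, adjusted p = 0.249) did not pass. Without swelling 4 of the 12 were called higher, against 1.52% of all genes tested. Il6 rose by 2.80 ± 0.34, Cxcl1 by 1.24 ± 0.22, Il1b by 1.16 ± 0.25 and Ptgs2 by 1.14 ± 0.29. These genes answer to many other signals and are made by other cells of the joint as well.

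**Figure D4:**
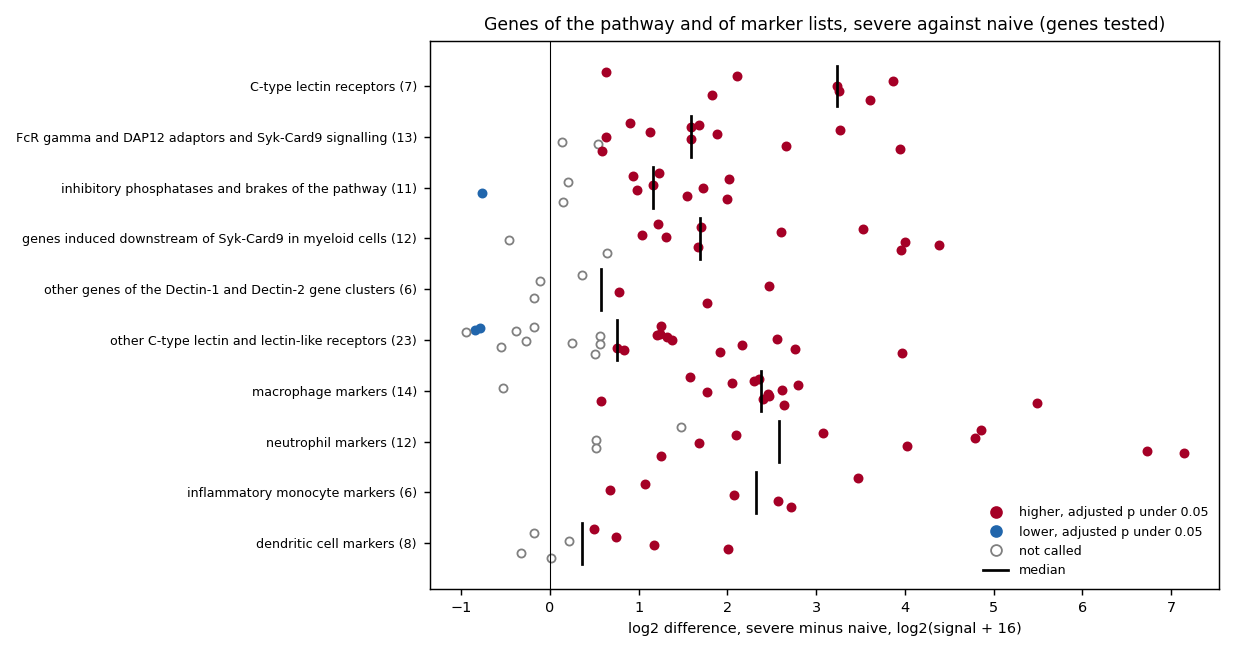
Difference between severe swelling and naive on the log2(signal + 16) scale for each tested gene of the receptor, pathway and marker lists; the number tested stands in brackets and black bars are medians. The receptor median is 3.23, that of macrophage markers 2.38 and that of the adaptor and Syk-Card9 genes 1.59.

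Other C-type lectins and lectin-like receptors moved in both directions. Of 23 tested genes of that kind 12 rose with severe swelling, against 32.3% of all genes tested, and 2 fell, with a median of 0.76. The largest were the adhesion receptor gene Selp (3.96 ± 0.22), Mrc2 (2.77 ± 0.26), a collagen uptake receptor of fibroblasts, and Clec11a (2.55 ± 0.27), a secreted growth factor. Cd209b (-0.79 ± 0.24) and Cd209d (-0.84 ± 0.29) fell. Mrc1, the mannose receptor of resident and alternatively activated macrophages, rose by 0.76 ± 0.28 (adjusted p = 0.0317), and Mgl2, the close paralog of Clec10a, was 40.8 ± 3.41 in naive and 23.4 ± 8.60 in severely swollen joints (-0.55 ± 0.25, adjusted p = 0.0701).

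Clec4a2, Clec4n, Clec4d and Clec4e lie in this order, with Clec4b2 between Clec4a2 and Clec4n, in a run of related genes on mouse chromosome 6 in the RefSeq gene order. Of their tested neighbours, Clec4a3 rose by 2.46 ± 0.37 with severe swelling (adjusted p = 4.21e-05) and Clec4b1 by 0.78 ± 0.28 (adjusted p = 0.0262). Clec4a1, Clec4a4 and Clec4b2 were not analysed here. Near-identical copies in this run could share probes: 1 probe set that the annotation pairs with both Clec4b1 and Clec4a2 was left out. The probe sets kept for this run, those of Clec4d and Clec4n among them, were not checked for shared probes. Clec7a lies in a further run on chromosome 6. There Olr1, the oxidized LDL receptor gene next to it, rose by 1.77 ± 0.27 (adjusted p = 4.05e-05), while Clec1a (0.36 ± 0.23, adjusted p = 0.202), Cd69, Clec2d, Clec2e and Gabarapl1 (-0.19 ± 0.15, adjusted p = 0.331) did not pass. Gabarapl1, an autophagy gene, was called lower without swelling (-0.72 ± 0.15, adjusted p = 0.0202). Clec5a lies elsewhere on chromosome 6 and Clec10a on chromosome 11.

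**Figure D5:**
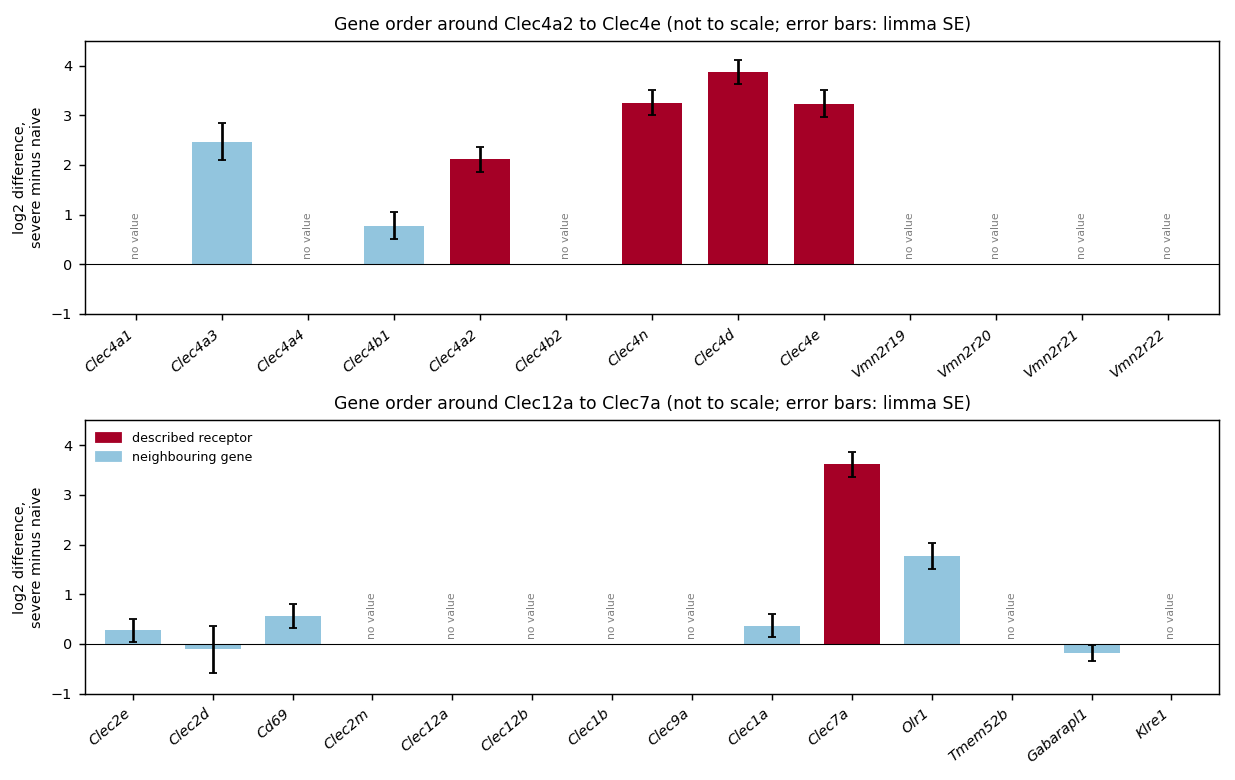
Difference between severe swelling and naive, log2(signal + 16) with limma SE, for genes in chromosomal order around the receptor genes on chromosome 6; receptors described are red, neighbours blue, and genes without a tested probe set have no bar. Clec7a, at 3.61, stands beside Olr1 at 1.77 and Clec1a at 0.36.

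Across the 15 arrays the receptors followed each other closely, as a description of values that share the group differences. Pearson's r of log2(signal + 16) was 0.930 to 0.993 between the 6 receptors other than Clec10a, and 0.715 to 0.818 between these and Clec10a. After each group's mean was subtracted, r was 0.534 to 0.854 and 0.110 to 0.650. Among all tested genes the closest to Clec4d were Limd2 (r = 0.995), the chemokine gene Cxcl5 (0.993) and Clec7a (0.993), and the closest to Clec7a were Clec4d, the leukocyte actin-bundling gene Lcp1 (0.992) and Il1b (0.991). Those closest to Clec4e were Clec7a (0.990), Lcp1 (0.989) and Skap2 (0.988), and to Clec4n they were Cstb (0.991), Chl1 (0.990) and Myo1f (0.988). Clec4a2 was closest to Tmem106a (0.992), Lgmn (0.990) and the lymphoid and myeloid transcription factor gene Ikzf1 (0.989). Clec5a was closest to the inhibitory Fc receptor gene Fcgr2b (0.971), H2-Aa (0.968), an MHC class II gene, and Ap2s1 (0.967). Clec10a had no gene as close, Kif2c (0.889), Gga2 (0.887) and Eipr1 (0.887) being the nearest.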

How the data were processed

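Total RNA was hybridized to 1 Affymetrix array per sample. The deposited table holds linear intensity values of 45101 probe sets, which the authors computed, per the submitters' processing notes, by MAS5 (version not given). The mean signal after trimming was 150.001 on every array, so no scaling was added.

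Groups came from titles and source names. Probe sets with 1 gene symbol in GEO's platform annotation (34958) gave 18193 named genes, each represented by its brightest probe set; 14314 passed the filter, a signal over the 40th percentile of its array on 3 or more arrays, and were tested. Group means of log2(signal + 16) were fitted over all arrays with limma 3.58.1 (R 4.3.3, intensity trend), two-sided, with Benjamini-Hochberg adjustment over all genes at 0.05, and checked on simulated data. Within-array differences were tested by exact permutation (SciPy 1.17.1); 3 arrays against 3 cannot go below 0.1. As Clec12a was not analysed here, 21 pairs and 14 marker comparisons were run in place of more. Alternatives were constants of 1 and 64, filters, normalizations, probe set summaries, no trend, fewer groups, the replicate number as a block and each array left out.

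The members and lists were chosen with earlier results of these data known. Named genes were the members, a small panel, from each list up to 3 genes of lowest p with severe swelling, those called lower, and each member's 3 closest genes; further genes named were chosen after their values were seen.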

Additional observations from a re-analysis of the deposited data

How the results depend on the processing

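Counts of called members, pairs and marker comparisons kept within 1.5 times of their value in 112 values from other settings. Called pairs ranged from 13 to 19, and called marker comparisons, 9 in the main setting, from 6 to 12. The exceptions to the 1.5 times are the no-swelling member counts of 1 (constant 64) and 0 (hybridization-control scaling). With 1 array left out, member counts ranged from 0 to 3 for no swelling against naive and 0 to 1 for moderate against mild. That scaling moved the median of all genes to 0.53 (severe against naive) and 0.71 (mild against no swelling), and the share of called genes that were higher from 58.5% to 87.1% and from 59.6% to 99.4%; with array medians aligned it was 47.3% and 46.4%. All 7 members stayed above naive under every scaling.

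Signs turned where differences were near 0. For moderate against mild, Clec4a2 was -0.008 with quantile normalization and -0.11 with hybridization-control scaling, and Clec10a -0.057 with the latter. For severe against moderate, Clec4d (-0.067) and Clec4a2 (-0.074) turned with medians aligned, Clec4n with quantile normalization (0.016) and control scaling (0.0017), and Clec4a2 with the mean of its probe sets (-0.20). With 1 array left out, Clec10a without swelling ranged from -0.039 to 0.39. Moderate against mild ranged from -0.072 to 0.26 for Clec5a, -0.26 to 0.18 for Clec4a2 and -0.048 to 0.29 for Clec10a. Severe against moderate ranged from -0.12 to 0.16 for Clec4d, -0.092 to 0.42 for Clec4e, -0.14 to 0.17 for Clec4n, -0.076 to 0.38 for Clec5a, -0.0005 to 0.31 for Clec7a and -0.087 to 0.13 for Clec4a2.

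With a constant of 1, pairs that turned were Clec4d against Clec4e (-0.052), Clec4e against Clec4n (0.42) and Clec7a (0.61), Clec4n against Clec7a (0.19) and Clec5a against Clec4a2 (0.37); so did Clec4e against neutrophil markers (0.75) and Clec5a (0.42) and Clec4a2 (0.050) against macrophage markers. With 64, Clec4e turned against Clec4a2 (-0.10) and macrophage markers (-0.29), and with CIA arrays alone Clec4n against Clec7a (0.26). The cause was not tested.

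Deviations from group means of same-numbered arrays had a median r of -0.04 (-0.51 to 0.33). For differently numbered arrays it was 0.02 (-0.27 to 0.39). The labels do not say whether same-numbered samples belong together, and these correlations cannot settle it. With the replicate block, counts were 7 with severe swelling and 3 without, and the only receptor call lost was Clec10a with moderate swelling (adjusted p = 0.0538). The signal of Clec4d, Clec4e and Clec5a in naive joints is too low to size their change firmly.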
